A study of Mus musculus with 6 samples.

Results

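The genes described here are 47 genes of the actin cytoskeleton and its contractile machinery, taken by name from a list and found on the array through the RefSeq accessions of its probes. All 47 had a probe, of 22910 genes that could be named on the array. They were grouped as smooth-muscle type genes (9 genes), cytoplasmic actin and non-muscle myosin (11 genes), actin cross-linkers (7 genes), focal adhesion genes (8 genes), PDZ-LIM genes (6 genes), the ERM genes that tie actin to the membrane (3 genes), filament turnover (2 genes) and the intermediate filament gene Vim. The cells were 2D-MAOs, which are mouse airway epithelial organoids (C57BL/6 strain) plated as a flat layer. The comparison was of 3 cultures treated with TGF-β1 from day 3 with 3 cultures left untreated. Both groups were kept from day 3 in a medium that lacked noggin and A83-01, which are inhibitors of BMP and of TGF-β receptor signalling, and all cells were collected on day 7. The microarray methods give no concentration of TGF-β1. The 3 cultures of each group are described as biological replicates, and RNA of each was read on 1 single-colour Agilent array.

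Actin monomers join into filaments, and myosin II pulls on these filaments when its regulatory light chain is phosphorylated. Most epithelial cells use the cytoplasmic actins with non-muscle myosin, whereas smooth muscle and contractile fibroblasts add smooth-muscle forms of actin, calponin, transgelin and tropomyosin. Many of these genes carry the CArG box, the site of the factor SRF, whose coactivators enter the nucleus when free actin monomer is used up. TGF-β1 is a known inducer of contractile genes in fibroblasts and of stress fibres in many epithelial cells.

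Values are log2 signals after quantile normalization, so that 1 unit is a 2-fold difference, and they compare arrays for 1 probe only, not 1 gene with another. A gene was read by its brightest probe unless another is named. A gene was called when its log2 fold change was at least 1 in size with a Benjamini-Hochberg adjusted p under 0.05 over 14345 genes tested with limma. On the 6 arrays, 56.8% to 60.8% of gene spots were well above background and no spot was saturated. TGF-β1 replicate 3 lay nearer to the controls than the other treated arrays did. It was the lowest treated array for 66.1% of all genes whose treated arrays were all above all control arrays. The TGF-β targets Pmepa1 (log2 fold change 1.31 ± 0.12 SE) and Fn1 (2.22 ± 0.34) were called higher. Of 12 airway epithelial markers, 11 were well above background on all 6 arrays, and Muc5ac was on none. With 3 arrays against 3, a two-sided exact permutation test of a single gene cannot go below 0.1, which is the value for any gene whose groups do not overlap.

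Of the 47 genes, 4 were higher in TGF-β1-treated 2D-MAOs and none was called lower. The share called higher among all genes tested was 1.19%, and the share called lower was 0.188%. The 4 genes were Pdlim4, a scaffold that binds actin through alpha-actinin, Mylk, the kinase of the myosin light chain, Cnn1, a calponin of smooth muscle filaments, and Palld, which holds actin bundles together. Without the fold threshold the same 4 passed the adjusted p, against 2.04% of all genes. At an unadjusted p under 0.05, 19 genes were higher (11.4% of all genes) and 3 lower (10.8% of all genes). All treated arrays lay above all control arrays for 23 of the 47 genes, against 12.9% of all genes tested. All treated arrays lay below all control arrays for 3 genes, Ezr, Lasp1 and Lmo7, against 13.5% of all genes.

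The log2 fold change was positive for 36 of the 47 genes, against 45.8% of all genes, and its median was 0.23, against -0.03 over all genes. This direction rests partly on the scaling. With each array scaled to its 75th percentile in place of quantiles, 25 of the 47 were positive, the median was 0.01, and the median of all genes was -0.09. The same 4 genes were called under both scalings. For 34 of the 47 genes the 95% interval of the change lay within 1 unit on either side of 0. It reached 1 or more for 9 genes that were not called, Tagln, Myl9, Cald1, Flna, Actn1, Flnc, Fhl2, Pdlim7 and Vim.

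**Figure D1:**
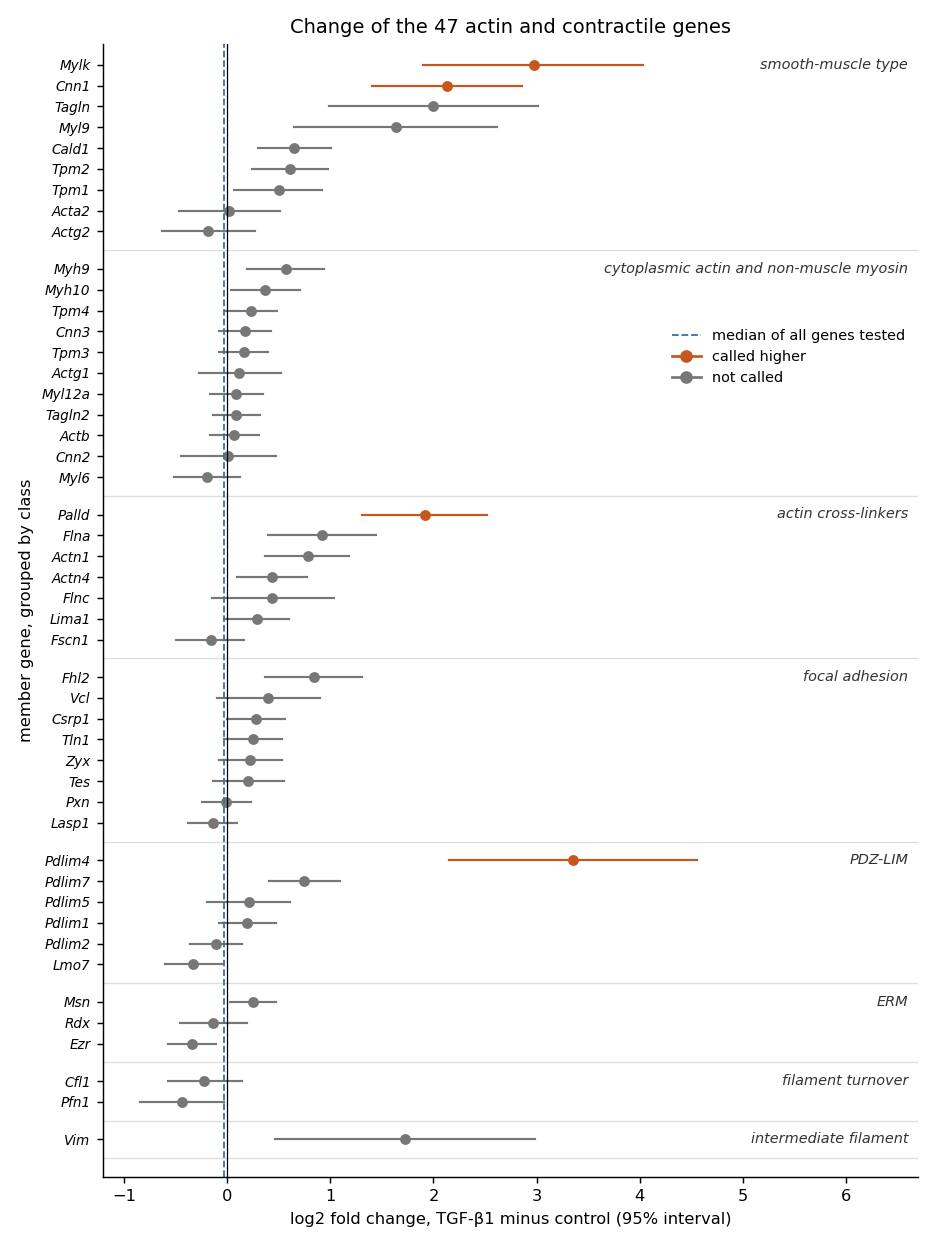
Log2 fold change of each of the 47 genes (points, TGF-β1 minus control, tested probe) with its 95% interval (lines), grouped by class on the vertical axis. The 4 genes called higher (Mylk, Cnn1, Palld and Pdlim4) have intervals entirely above 1, and most cytoplasmic genes lie near the dashed median of all genes tested.

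The calls depended on single arrays. Leaving out any 1 control array or TGF-β1 replicate 2 left none of the 47 called. Without TGF-β1 replicate 1 only Cnn1 remained called. Without TGF-β1 replicate 3 the number rose to 8 (3.86% of all genes), with Tagln, Myl9, Flna and Vim added and none called lower (1.09% of all genes). The share of all genes called is not given for the other fits. Whether the loss of calls was particular to the 47 was therefore not shown. The sizes moved less than the calls: over the 6 fits that each left out 1 array, the log2 fold change of Cnn1 stayed between 1.81 and 2.42 and that of Palld between 1.73 and 2.21.

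Sequence upstream of the genes is shown for 6 genes. Many genes of this kind are known to carry the site of SRF, and the window can be set beside their changes. A promoter of 300 bases (250 before the start and 50 from it, RefSeq annotation of GRCm38.p6) was matched for 42 of the 47 genes. Those without a match were Pxn, Actg2, Tagln, Actb and Pdlim2. The CArG box was searched as CC, then 6 bases of A or T, then GG, so that a box with any mismatch was not counted. Searched on both strands, it was found for 7 of the 42 genes (16.7%), against 1.81% of 27025 genes with a promoter. The 7 were Myl9, Fhl2, Vcl, Lima1, Actg1, Cnn2 and Myl6, and their log2 fold changes ran from 1.64 (Myl9) to -0.19 (Myl6) with none called. GGAATG or its reverse complement CATTCC, a core of TEAD sites, was found for 13 of the 42 (31%), against 16.6% of all genes, and among called genes in Mylk and Palld. CAGAC or GTCTG, which Smad factors can bind, was found for 21 (50%), against 53.2% of all genes. The called genes Mylk, Cnn1, Palld and Pdlim4 were among them, and this string is not marked in the printed sequences. A match is a string of letters in a window and not a measured site. The 250 bases before the start are printed 5′ to 3′ for 3 genes with a CArG box and different changes (Myl9, Vcl and Actg1) and for 3 called genes (Cnn1, Mylk and Pdlim4). Capitals mark the CArG box and GGAATG or its reverse complement, which did not overlap.
Myl9 (chr2:156775214-156775463, plus strand): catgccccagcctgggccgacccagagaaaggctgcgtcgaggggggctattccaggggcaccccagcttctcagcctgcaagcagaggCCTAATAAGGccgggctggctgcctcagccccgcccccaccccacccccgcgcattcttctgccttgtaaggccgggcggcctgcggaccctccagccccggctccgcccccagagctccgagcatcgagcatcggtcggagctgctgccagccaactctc
Vcl (chr14:20929148-20929397, plus strand): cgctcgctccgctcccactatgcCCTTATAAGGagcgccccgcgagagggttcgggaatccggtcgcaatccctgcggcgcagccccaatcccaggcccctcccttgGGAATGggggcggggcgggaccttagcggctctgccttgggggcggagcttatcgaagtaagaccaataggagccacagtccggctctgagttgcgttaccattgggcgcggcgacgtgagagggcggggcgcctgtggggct
Actg1 (chr11:120348496-120348745, minus strand): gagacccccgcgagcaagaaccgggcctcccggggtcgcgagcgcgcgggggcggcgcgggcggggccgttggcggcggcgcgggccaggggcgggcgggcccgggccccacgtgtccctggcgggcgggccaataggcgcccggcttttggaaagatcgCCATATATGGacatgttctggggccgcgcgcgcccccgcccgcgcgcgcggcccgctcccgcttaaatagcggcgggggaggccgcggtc
Cnn1 (chr9:22099003-22099252, plus strand): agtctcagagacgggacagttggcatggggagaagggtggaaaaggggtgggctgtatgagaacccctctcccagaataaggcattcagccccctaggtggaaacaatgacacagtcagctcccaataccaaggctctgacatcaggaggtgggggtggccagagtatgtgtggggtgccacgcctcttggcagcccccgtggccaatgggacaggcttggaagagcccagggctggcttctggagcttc
Mylk (chr16:34784700-34784949, plus strand): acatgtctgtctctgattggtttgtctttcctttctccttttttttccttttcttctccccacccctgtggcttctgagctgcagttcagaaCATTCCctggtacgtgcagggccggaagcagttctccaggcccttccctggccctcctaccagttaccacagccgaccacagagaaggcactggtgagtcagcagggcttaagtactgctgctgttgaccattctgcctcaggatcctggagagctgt
Pdlim4 (chr11:54069018-54069267, minus strand): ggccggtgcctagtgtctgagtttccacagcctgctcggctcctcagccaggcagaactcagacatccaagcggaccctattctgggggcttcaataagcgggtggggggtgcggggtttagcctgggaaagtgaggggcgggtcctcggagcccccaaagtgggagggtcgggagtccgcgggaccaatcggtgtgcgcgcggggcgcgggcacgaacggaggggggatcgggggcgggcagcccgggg
The CArG box begins 161 bases before the start in Myl9, 227 in Vcl and 90 in Actg1. None of these 3 genes was called, and in Cnn1 and Pdlim4 neither marked string was found in the printed window.

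The smooth-muscle type genes were the class of largest change apart from Vim, with a median log2 fold change of 0.65 and 2 of 9 called. The median was 0.49 after 75th-percentile scaling and 1.38 with the mean of a gene's probes. Mylk was read at 5.17, 4.72 and 4.98 in the controls and at 8.63, 8.32 and 6.82 in the treated cultures. All treated arrays were above all controls, with replicate 3 the lowest of them. The log2 fold change was 2.97 ± 0.45 (SE, adjusted p = 0.0277), which is 7.81-fold. Cnn1 was read at 6.14, 5.69 and 6.16 in the controls and at 8.77, 8.07 and 7.55 after TGF-β1. Its groups were likewise apart, with a change of 2.13 ± 0.31 (adjusted p = 0.0231), or 4.38-fold. Both probes were dim: the spot was 1.75 to 3 times its local background in the controls for the pair, and 4.24 to 15.5 times after TGF-β1. With normexp background correction the change of Mylk was 1.78 and that of Cnn1 1.53, and both were still called.

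Tagln, which encodes transgelin, a coating protein of smooth-muscle actin filaments, was read at 8.64, 8.22 and 8.40 in the controls and at 11.04, 10.86 and 9.37 after TGF-β1. The groups did not overlap, but replicate 3 lay close to 1 unit above the controls where the others lay above 2. The change of 2.00 ± 0.42 did not pass (adjusted p = 0.0735). It passed without TGF-β1 replicate 3, at 2.53 (adjusted p = 0.00204). Myl9, the regulatory light chain that the Mylk kinase phosphorylates in smooth muscle, showed a change of 1.64 ± 0.41 (adjusted p = 0.105), and 2.09 without that array (adjusted p = 0.0102). Cald1, Tpm2 and Tpm1, which control myosin's access to the filament, had smaller values of 0.65, 0.61 and 0.50, none of which passed.

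The 2 actins of smooth muscle did not pass the test. By the brightest probe, Acta2 was read at 14.05, 13.69 and 13.32 in the controls and at 13.94, 13.66 and 13.53 after TGF-β1. The ranges overlapped almost wholly, and the change of 0.02 ± 0.21 had a 95% interval from -0.47 to 0.51, which does not reach a 2-fold change in either direction for this probe. Actg2, the enteric smooth-muscle actin, changed by -0.18, with an interval from -0.63 to 0.27.

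Another probe with the same RefSeq accession of Acta2 gave a different picture. It was far dimmer and was well above background on all 6 arrays, at 6.06, 5.40 and 5.35 in the controls and 9.27, 8.75 and 7.01 after TGF-β1. Every treated array was above every control, with replicate 3 again the lowest. Tested among 32460 probes, its change was 2.74 ± 0.54 with an adjusted p of 0.0580, so that it was not called either. The interval of this probe ran from 1.47 to 4 and did not meet that of the bright probe. The third and dimmest Acta2 probe was above background on no array. The bright spot was 287 to 494 times its local background in the controls, and the dim one 2.36 to 3.50 times. The cause of the difference between the probes was not tested, and the level of Acta2 was therefore not settled by these arrays.

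**Figure D2:**
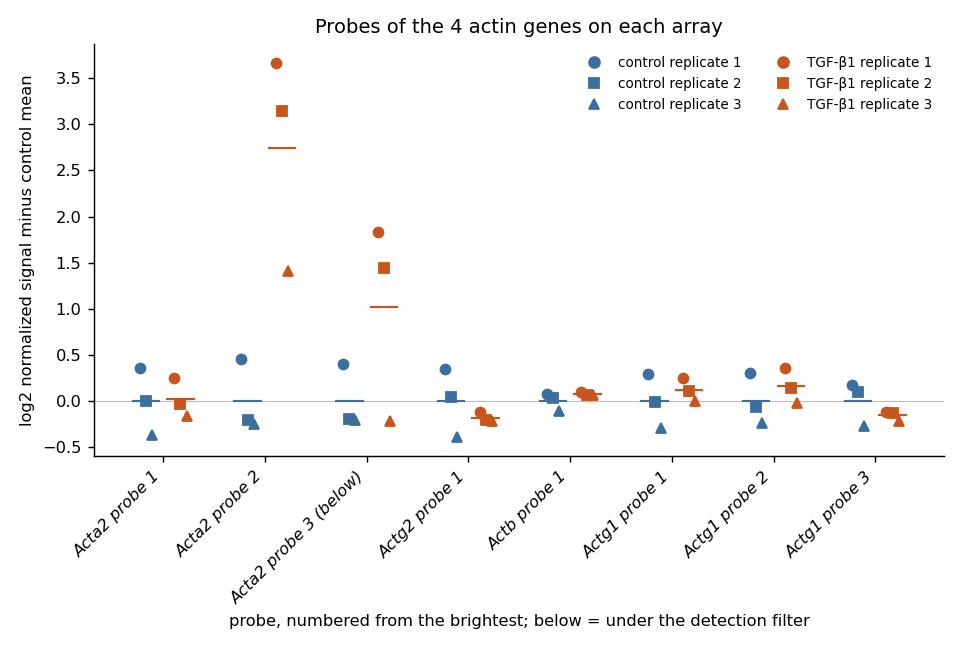
Log2 normalized signal minus the control mean (vertical axis) on each of the 6 arrays for all probes of the 4 actin genes, numbered from the brightest, with short lines at the group means. The second Acta2 probe is the only one above the detection filter whose treated arrays all lie above the controls; it differs by 2.74, whereas the brightest differs by 0.02.

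The cytoplasmic actins and non-muscle myosin genes were bright and moved little, with a median of 0.12 that turned to -0.11 after 75th-percentile scaling, and none of 11 was called (2 at an unadjusted p under 0.05). Actb, the main cytoplasmic actin, changed by 0.07 (interval -0.17 to 0.31) and Actg1 by 0.12 (interval -0.27 to 0.52). After 75th-percentile scaling these values were -0.07 and -0.15. The largest values of the class were those of the non-muscle myosin heavy chains. Myh9 was read at 15.94, 15.92 and 16.17 in the controls and at 16.66, 16.79 and 16.30 after TGF-β1. The groups were apart, though by only 0.13 between the closest arrays, and the change of 0.57 ± 0.16 did not pass (adjusted p = 0.124). Myh10 stood at 10.45, 10.65 and 10.52 in the controls and 11.06, 11.02 and 10.67 after TGF-β1, a change of 0.37 (adjusted p = 0.192). Tpm4, a cytoplasmic tropomyosin, stood at 14.32, 14.14 and 14.30 in the controls and 14.44, 14.45 and 14.55 after TGF-β1, a change of 0.23 (adjusted p = 0.258). The other 8 genes of the class changed by -0.19 (Myl6) to 0.17 (Cnn3). Cnn1 was called higher by 2.13, while its non-muscle relatives Cnn2 and Cnn3 differed by 0.01 and 0.17. Likewise Tagln differed by 2.00 and its relative Tagln2 by 0.09. Whether these pairs differed in their change was not tested.

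Among the actin cross-linkers 1 of 7 was called and the class median was 0.44. It was 0.69 without control replicate 3 and 0.2 within slide row 2 (the replicate 3 arrays). Palld was read at 10.73, 10.99 and 10.90 in the controls and at 13.00, 13.17 and 12.20 after TGF-β1. The closest arrays of both groups were more than 1 unit apart. Its change of 1.92 ± 0.25 (adjusted p = 0.0189) was the call of lowest adjusted p among the 47 genes. Flna, which joins filaments into a network, was read at 15.22, 15.33 and 15.77 in the controls and 16.47, 16.62 and 15.97 after TGF-β1. Its groups were apart by 0.20 and its change was 0.92 ± 0.22 (adjusted p = 0.0934). Actn1, the alpha-actinin of stress fibres, stood at 15.05, 15.17 and 15.18 in the controls and 16.02, 16.16 and 15.55 after TGF-β1. Its change was 0.78 ± 0.17 (adjusted p = 0.0798). Actn4, Flnc and Lima1 had values of 0.44, 0.44 and 0.29. Fscn1, the bundling protein of filopodia, had a value of -0.16.

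None of the 8 focal adhesion genes was called (2 at an unadjusted p under 0.05), and their median of 0.24 fell to 0.01 after 75th-percentile scaling. Fhl2, a LIM-only cofactor found at adhesions and in the nucleus, had the largest value. It was read at 11.52, 11.95 and 11.97 in the controls and 12.68, 12.95 and 12.34 after TGF-β1, without overlap, a change of 0.84 ± 0.20 (adjusted p = 0.0923). Vcl, which links talin to actin, was read at 14.08, 13.87 and 14.50 in the controls and 14.72, 14.71 and 14.22 after TGF-β1. Here the groups overlapped, since control replicate 3 was above TGF-β1 replicate 3, and the change was 0.40 (adjusted p = 0.303). Csrp1, a LIM protein of actin bundles, stood at 16.01, 15.97 and 15.81 in the controls and 16.16, 16.12 and 16.35 after TGF-β1, a change of 0.28 (adjusted p = 0.223). Tln1, Zyx, Tes, Pxn and Lasp1 had values of 0.25, 0.22, 0.20, -0.01 and -0.14.

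The PDZ-LIM genes, whose proteins sit on alpha-actinin, spread the widest. Pdlim4 was read at 6.25, 7.45 and 7.38 in the controls and at 10.88, 10.90 and 9.35 after TGF-β1. All treated arrays were above all controls, and the change of 3.35 ± 0.50 (adjusted p = 0.0266), or 10.2-fold, was the largest of the 47 genes. Pdlim7 was read at 14.53, 14.74 and 14.45 in the controls and 15.23, 15.55 and 15.20 after TGF-β1, with replicates 1 and 3 close together. Its change was 0.75 ± 0.14 (adjusted p = 0.0547). Lmo7, a protein of cell junctions, was read at 15.66, 15.60 and 15.83 in the controls and 15.48, 15.34 and 15.29 after TGF-β1. All treated arrays were below all controls, but the change of -0.33 did not pass (adjusted p = 0.176). Pdlim5, Pdlim1 and Pdlim2 had values of 0.21, 0.19 and -0.11.

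The ERM genes and the genes of filament turnover held the 2 largest decreases of the list, Pfn1 and Ezr, and none of the 5 genes was called (3 at an unadjusted p under 0.05). Ezr, the ezrin of epithelial microvilli, was read at 16.09, 16 and 15.99 in the controls and 15.72, 15.66 and 15.68 after TGF-β1. The groups were apart and narrow, with a change of -0.34 ± 0.10 (adjusted p = 0.127). Msn, moesin, went the other way, at 16.03, 16.02 and 16.04 in the controls and 16.27, 16.29 and 16.29 after TGF-β1, a change of 0.25 ± 0.09 (adjusted p = 0.189). After 75th-percentile scaling the value of Msn was 0.01 and that of Ezr -0.61. Rdx, radixin, stood at 12.26, 11.93 and 12.19 in the controls and 12.04, 11.82 and 12.11 after TGF-β1, with overlap. Pfn1, which loads monomers onto filaments, was read at 12.29, 12.18 and 11.81 in the controls and 11.50, 11.60 and 11.88 after TGF-β1. The groups overlapped and the change was -0.44 ± 0.17 (adjusted p = 0.201). Cfl1, which severs filaments, stood at 14.36, 14.42 and 14.15 in the controls and 13.89, 14.07 and 14.32 after TGF-β1, a change of -0.22 (adjusted p = 0.405).

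Vim, the intermediate filament gene of mesenchymal cells, was read at 4.80, 4.81 and 3.89 in the controls and 7.07, 6.55 and 5.04 after TGF-β1. The groups did not overlap, but TGF-β1 replicate 3, at 5.04, was close to the highest control. The change of 1.72 ± 0.53 did not pass (adjusted p = 0.147). The probe was dim, at 1.51 to 2.09 times its local background in the controls and 2 to 6.14 times after TGF-β1, and the change was 0.78 with normexp background correction.

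**Figure D3:**
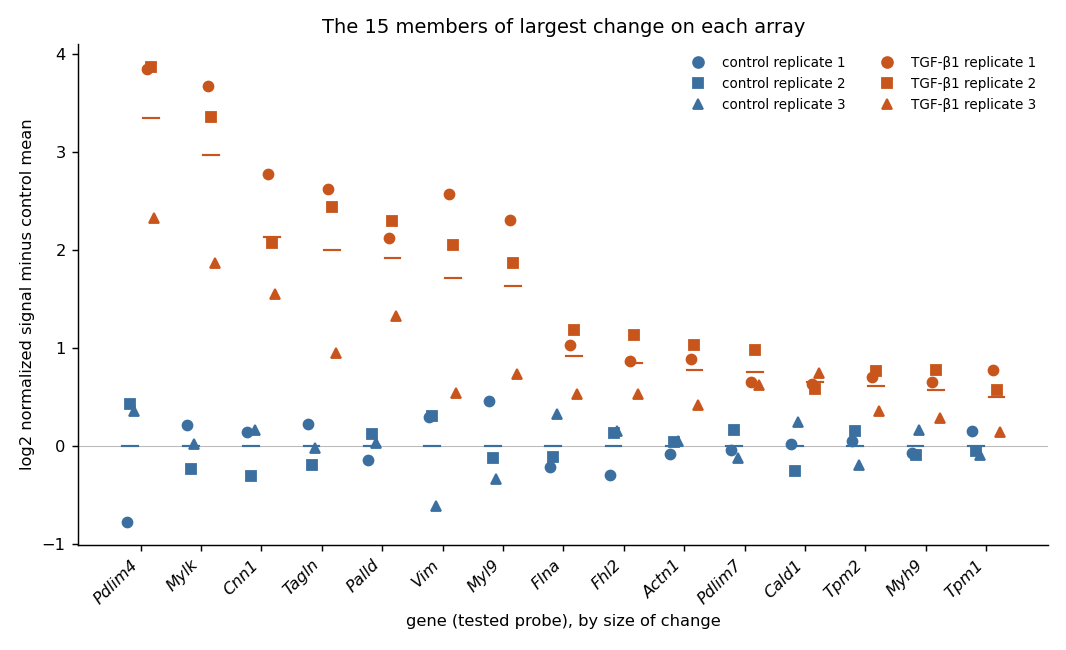
Log2 normalized signal minus the control mean (vertical axis) for the 15 genes of largest change on each array, controls in blue and TGF-β1 in orange, with marker shape giving the replicate number and short lines the group means. TGF-β1 replicate 3 (orange triangles) is the lowest treated array for most of them, as for Tagln (9.37 against 10.86 and 11.04).

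TGF-β1 replicate 3 was the lowest treated array in 17 of the 23 genes whose treated arrays were all above the controls (73.9%), against 66.1% of all such genes. The replicate 3 arrays of both groups lay in slide row 2 and the others in slide row 1. Within row 1 (2 arrays against 2), 9 of the 47 were called higher, against 4.37% of all genes. Within row 2 (1 array against 1, with no test), Pdlim4 differed by 1.97, Mylk by 1.84, Cnn1 by 1.39, Palld by 1.3, Vim by 1.16 and Myl9 by 1.07. These 6 genes were the only members more than 1 unit higher in both rows (12.8%), against 1.23% of all genes. Vcl was 0.74 higher in row 1 and 0.28 lower in row 2, at -0.28, and Pfn1 changed from -0.69 in row 1 to 0.07 in row 2. Slide row and replicate number 3 cannot be told apart here.

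**Figure D4:**
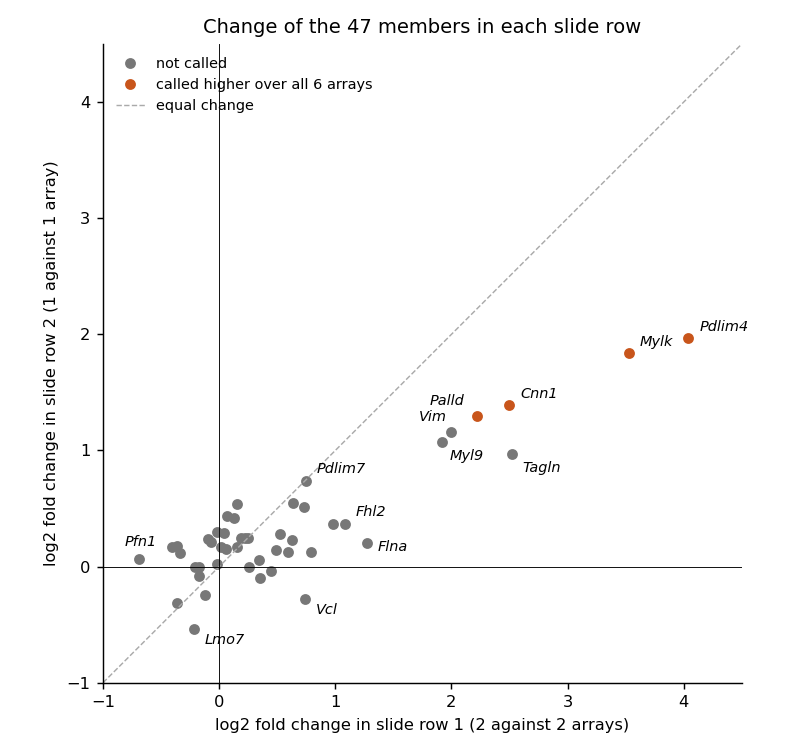
Log2 fold change of the 47 genes within slide row 1 (horizontal axis, 2 against 2 arrays) and within slide row 2 (vertical axis, 1 against 1 array), with the dashed line at equal change. The genes of largest change are higher in both rows and lie below the line, as Pdlim4 at 4.04 and 1.97.

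Several genes were read by more than 1 probe, and the probes did not always give the same change. Of the 47 genes, 25 had more than 1 probe above the detection filter. Their log2 fold changes were more than 0.5 apart for 7 genes (28%), against 11.2% of 5361 genes with several such probes, and more than 1 apart for Acta2 and Palld (8%), against 0.914%. Palld had 2 probes at 1.92 and 1.93, both called, and a probe for the transcript NM_001293773 at 0.00. That probe was read at 6.32, 6.01 and 6.07 in the controls and 6.18, 6.32 and 5.89 after TGF-β1, with overlap. Tpm2 had a value of 0.61 by its brightest probe and 1.46 by the probe for NM_009416 (adjusted p = 0.0824). For Pdlim5 the brightest probe gave 0.21 and the others 0.69 and 0.73. For Pdlim7 the dimmer probe gave 0.20, for Pdlim2 it gave -0.68, and the 5 probes of Tpm3 ran from -0.47 to 0.16. A dimmer Mylk probe was well above background on the 3 treated arrays only, at least 4.71-fold higher, and had passed the filter through those arrays alone. Among the 80 probes tested for the 47 genes, 6 were called higher, for the same 4 genes, and none lower, against 0.983% and 0.209% of all probes. Leaving aside that Mylk probe, 5 were called higher. The lowest Lmo7 probe, at -0.70, passed the adjusted p (0.0420) but not the fold threshold. The cause of these differences was not tested.

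**Figure D5:**
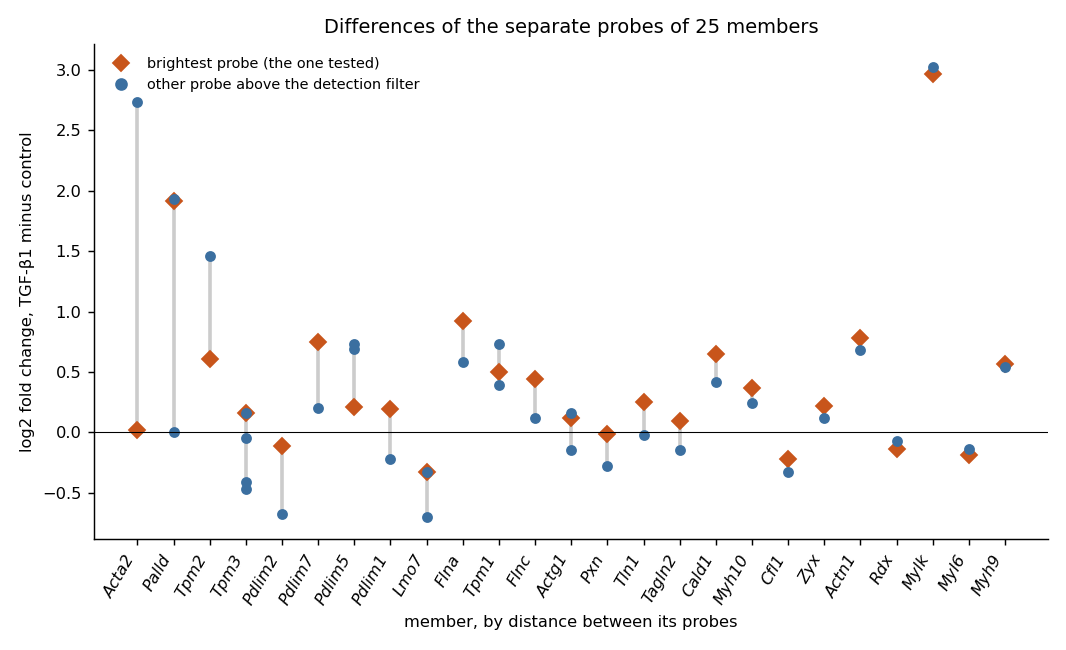
Log2 fold change of each probe above the detection filter for the 25 genes with several, ordered by the distance between their probes (grey lines), with orange diamonds for the brightest probe and blue circles for the others. The distance is 2.72 for Acta2 and 1.93 for Palld, and it is above 0.5 for 7 genes.

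Other genes of the pathway were counted from 4 lists of 67 genes, of which 61 were tested. Of these, 4 were called higher and none lower (Fermt1, Tns1, Smtn and Krt17), against 1.19% and 0.188% of all genes. At an unadjusted p under 0.05 there were 10 higher and 4 lower, against 11.4% and 10.8% of all genes. None of the 61 was called higher without control replicate 2, TGF-β1 replicate 1 or TGF-β1 replicate 2, and 1 was without control replicate 1 or control replicate 3. The share of all genes called in those fits is not given. Without TGF-β1 replicate 3 there were 8, against 3.86% of all genes. None of 26 genes of filament branching and turnover was called. Wasl, Gsn and Coro1b had values of -0.40, -0.34 and -0.33, and Capg and Coro1c 0.31 and 0.29.

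Of 22 adhesion adaptor genes 2 were called. Fermt1, the kindlin of epithelial integrin adhesions, was read at 7.29, 7.39 and 7.02 in the controls and 9.07, 8.97 and 8.28 after TGF-β1, a change of 1.54 ± 0.23 (adjusted p = 0.0242). Tns1, a tensin that binds actin at integrins, was read at 10.00, 9.32 and 9.36 in the controls and 10.77, 10.66 and 11.06 after TGF-β1, a change of 1.27 ± 0.21 (adjusted p = 0.0403). Here replicate 3 was the highest treated array. Vasn, a membrane protein kept in that list, had a value of 1.02 (adjusted p = 0.0538), and Ablim3 and Parva had -0.68 and -0.55.

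Of 11 late smooth muscle genes only 5 could be tested and 1 was called. Smtn, smoothelin, was read at 9.79, 10.25 and 10.02 in the controls and 11.81, 12.10 and 11.26 after TGF-β1, a change of 1.70 ± 0.23 (adjusted p = 0.0210). Casq2, Hspb6 and Actc1 had values of 0.94, -0.13 and -0.19. Acta1 was well above background on 2 of 3 treated arrays and on no control, at least 1.99-fold higher and not tested. Of 8 keratin genes, the epithelial counterpart of Vim, Krt17 was called, with a change of 1.06 ± 0.19 (adjusted p = 0.0472) that was 0.83 and not called after 75th-percentile scaling. Krt14 and Krt5 had values of 1.55 and 1.37, and Krt15 and Krt19 -1.06 and -0.31, and none of these passed.

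Markers of other cells were read on the same arrays, because in bulk RNA fewer cells of a type and less RNA per cell cannot be told apart. Of 7 smooth muscle markers, 6 (Myh11, Lmod1, Des, Myocd, Kcnmb1 and Synpo2) were well above background on no array, and Smtn was on all. Of 9 fibroblast markers, Col3a1, Lum, Tcf21 and Postn were well above background on no array. Col1a1 was well above background on the 3 treated arrays only, at least 2.59-fold higher, and Col1a2 likewise, at least 2.37-fold higher, and both had passed the detection filter through those arrays alone. The other 3 fibroblast markers were well above background on all 6 arrays, and none of them passed the test. Pdgfra had a log2 fold change of 0.21, with overlap (adjusted p = 0.484). Thy1 was read at 4.14, 4.67 and 4.23 in the controls and 8.19, 7.65 and 4.6 after TGF-β1 (adjusted p = 0.176). Dcn was read at 8.98, 8.81 and 8.96 in the controls and 11.10, 9.68 and 8.98 after TGF-β1 (adjusted p = 0.273). Thy1 and Dcn were highest in TGF-β1 replicates 1 and 2, as were Mylk, Tagln, Myl9 and Vim. Col1a1 had the same order, at 5.89, 5.42 and 4.74 on TGF-β1 replicates 1 to 3. Col1a2 was instead lowest on replicate 1 (4.89, 5.48 and 5.38) and Pdgfra lowest on replicate 2 (7, 6.43 and 6.63). The order was common, since replicate 3 was lowest for 66.1% of all genes whose treated arrays were all above the controls.

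The summed signal of the 9 fibroblast markers was 582 to 654 in the controls and 2710, 1210 and 711 in TGF-β1 replicates 1 to 3. Dcn alone made up 67.8% to 80.8% of it, and without Dcn the sum was 133 to 148 in the controls and 522, 390 and 205 after TGF-β1. The sum of the 4 pericyte markers was 2660 to 4250 in the controls and 8360, 9100 and 3440 after TGF-β1, and Notch3 made up 98.6% to 99.6% of it. Notch3 did not pass (adjusted p = 0.222), Cspg4 had a log2 fold change of -0.01, Rgs5 was not tested, and Pdgfrb was above background on no array. The sum of the epithelial list was also higher on TGF-β1 replicates 1 and 2 than on replicate 3, at 228000 to 255000 in the controls and 397000, 384000 and 265000 after TGF-β1. Its brightest gene, Krt18, made up 21.5% to 34.8% of it. The members of this list did not move together. Foxj1 was called higher (1.47, adjusted p = 0.00238). Scgb1a1 had -2.27, with all treated arrays below all controls but not called (adjusted p = 0.158). Nkx2-1 and Sox2 had -0.01 and 0.03. Of 5 endothelial markers, 4 (Cdh5, Kdr, Tek and Emcn) were above background on no array, with a summed signal of 79.7 to 94.2 in the controls and 86.5 to 100 after TGF-β1. Of 6 leukocyte markers, Ptprc and Lyz2 were above background on no array, and Cd68, Itgam, Csf1r and Cd3e were well above background on all 6. Cd68 and Itgam had all treated arrays above all controls, with changes of 0.90 (adjusted p = 0.147) and 0.43 (adjusted p = 0.134). Csf1r and Cd3e had 0.01 and -0.24, and none of the list was called. The summed signal of all 6 markers was 10600 to 12300 in the controls and 13600 to 14700 after TGF-β1. The part of these lists in the values of the contractile genes was not tested.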

How the data were processed

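RNA of 6 2D-MAO cultures (3 TGF-β1, 3 control) was hybridised to 1 single-colour Agilent array each, all on 1 slide and in 1 scan. The deposited files hold spot intensity on a linear scale after background subtraction by Agilent Feature Extraction 11.0.1.1 (the version is from the submitters' processing notes), without normalization between arrays, which the authors applied afterwards by quantiles. Control and flagged spots were left out here, which kept 56599 probes. Log2 intensities were quantile-normalized. Probes were required to be well above background on 3 or more of the 6 arrays (32460 probes passed), 32991 of 35883 probes with a RefSeq accession matched a symbol of GRCm38.p6, and the brightest probe stood for a gene. The design was annotated on another assembly, so probes have no positions here. The groups were compared by limma 3.58.1 (R 4.3.3) with treatment as the single term and Benjamini-Hochberg adjustment over all 14345 genes. Figures used matplotlib 3.10.9 in Python 3.11.15. For arrays, the number of arrays limits the precision.

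All 47 genes had a tested probe well above background on all 6 arrays. The genes, classes, lists and tests were chosen with earlier results of these data known. A further list of regulators is not reported here. The text may name all 47; values on every array are given for called genes, up to 3 of largest change in each class and the 3 largest decreases, and up to 3 and up to 2 opposite genes are named from each other list. Alternatives were 75th-percentile scaling, normexp with an offset of 50 on median spot and background signals (no mean signal was used), no filter or all 6 arrays, the mean of probes, a trend and robust prior, array weights, the methods' t-test, no fold threshold, the replicate number or slide row as a block, values within each row, each array left out and, chosen after seeing the data, each probe as a unit. In simulated data of the same 14345 genes, 76% of changes of 1.5 units and 100% of changes of 4 units were recovered, with 3 false calls. The simulation used independent noise and the same change on every treated array. It held no weaker TGF-β1 replicate 3 and no slide row, so these rates were not shown to hold for the real arrays.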

Additional observations from a re-analysis of the deposited data

How the results depend on the processing

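The number of the 47 genes called higher was 4, and it was 4 to 6 with 75th-percentile scaling, normexp background, detection on all 6 arrays, the mean of probes, a trend and robust prior, the unadjusted t-test of the methods, no fold threshold and each probe as a unit. It was 0 with no filter on detection (22910 genes), 0 with the adjusted t-test and 0 with the replicate block, 7 with slide row as a block, 9 with array weights and 9 within slide row 1. With each array left out in turn it ran from 0 to 8. None was called lower in any of these settings. The share of all genes called is not given for the fits with a block, array weights or no filter. The number of other pathway genes called higher was 4. It was 0 with no filter and with the adjusted t-test, 1 with the replicate block, 8 with array weights, 7 within slide row 1, and 0 to 8 with each array left out. The number called lower was 0, and 0 to 1 with each array left out. The median of the 47 was 0.23 and moved to 0.01 with 75th-percentile scaling. It was 0.21 to 0.27 otherwise. The median of the cytoplasmic class reversed to -0.11 with that scaling, and that of the turnover class, -0.33, reversed to 0.12 within slide row 2 and was -0.55 within row 1. The smooth-muscle median, 0.65, was 1.38 with the mean of probes, which was the value of Acta2 averaged over its disagreeing probes. The cross-linker median, 0.44, was 0.69 without control replicate 3 and 0.2 within row 2. Those of the focal adhesion genes (0.24) and PDZ-LIM genes (0.2) were 0.01 and 0.03 with 75th-percentile scaling and 0.04 and 0.35 within row 2. The cytoplasmic median, 0.12, was 0.06 within row 1 and without control replicate 3. The labels do not say whether same-numbered cultures were paired. Deviations of same-numbered arrays correlated at -0.01, 0.33 and -0.05 over genes, which cannot decide it. The cause of these differences was not tested.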

Other observations

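The brightest Acta2 probe was highest on control replicate 1 and lowest on control replicate 3 (14.05 and 13.32). The same held for Actg1 (15.78 and 15.20), Actg2 (11.59 and 10.85) and Cnn2 (13.67 and 12.98). Among the controls the dim Acta2 probe was likewise highest on replicate 1 (6.06, against 5.40 and 5.35), but every treated array was above every control. These genes were chosen after their values were seen, and the cause was not tested.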
